A study of Rattus norvegicus with 8 samples.

Results

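Siglec5, the C-type lectin Clec4a3, the Fc receptor genes Fcgr1a, Fcgr2b and Fcer1g, and the adhesion and surface receptor genes Itgam and Adgre1 were followed in rat PBMCs (peripheral blood mononuclear cells, which are mostly lymphocytes with some monocytes) cultured with plasma of different origin. Every probe set annotated to exactly 1 of these symbols was taken, which gave 7 probe sets for 7 genes, of 31042 probe sets and 14217 genes on the array. The genes were chosen from their measured differences between plasmas on these same arrays, so their own levels and differences are given as a description without a test.

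The cells came from 2 healthy male Brown Norway rats about 180 days old, BN1 and BN2, and each culture of 500000 cells was kept for 6 h in medium holding 20% plasma and was then measured on 1 Affymetrix rat expression array. The 5% IH plasma was a pool from 5 male Sprague-Dawley rats that breathed 5% oxygen intermittently for 1 h a day on postnatal days 2 to 6 and were bled as adults at PD114 (postnatal days, as the labels give them), the 10% IH plasma was a pool from 3 such rats exposed to 10% oxygen, and the normoxic control plasma was a pool from 8 rats of the same strain, sex and age kept at 21% oxygen. Autologous Brown Norway plasma was the background. Each group holds 2 arrays, 1 per donor of cells, and each Sprague-Dawley plasma was pooled 1 time, so the spread within a group is that between 2 donors of cells and not between plasma donors or pools. For the autologous arrays the labels do not settle which donor's plasma met which donor's cells. Array medians lay between 5.53 and 5.56 on the log2 scale, and the deposited values carry no detection call. The T cell markers, 8 of 8 measured, summed to linear signals of 10082 to 11096 over the 8 arrays, the B cell markers (4 of 7 measured) to 2283 to 3299, and the neutrophil markers (6 of 10 measured) to 135 to 223.

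Receptors of this kind work in opposed pairs. Activating Fc receptors such as Fcgr1a, the high-affinity receptor for immunoglobulin G, bind antibody and signal through Fcer1g, the common gamma chain, whose tail carries an activation motif read by the kinase Syk. Inhibitory receptors carry a motif that recruits phosphatases to the same complexes. Fcgr2b is the inhibitory receptor for immunoglobulin G, human Siglec-5 is an inhibitory receptor for sialic acids, and Clec4a3 belongs to the Dcir group of lectins, of which mouse and human Clec4a carries the inhibitory motif. Whether the rat proteins of Siglec5 and Clec4a3 carry it was not examined here. Itgam is the alpha chain of complement receptor 3, which pairs with the integrin chain Itgb2, and Adgre1 is the macrophage surface protein F4/80. Monocytes express all of these genes, while Fcgr2b is also expressed by B cells and Fcer1g by several other blood cell types.

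PU.1 is a transcription factor that myeloid cells need, and its binding sites hold a GAGGAA core, so the promoter stretches with these letters are shown for the members that have a RefSeq promoter entry, 4 of 7 (build GRCr8). The 250 bases before the start site of that entry were searched on both strands. Siglec5, Clec4a3 and Adgre1 had 1 match each and Itgam had 2. The capitals mark the hexamer, TTCCTC where it reads on the opposite strand. All are written 5′ to 3′ on the plus strand.
Siglec5, chr1:102904726-102904755: ggagggcggctcTTCCTCgctgactttggc
Clec4a3, chr4:157886508-157886530: actgcTTCCTCttttttccattc
Adgre1, chr9:2329221-2329250: gaaatggaaagaGAGGAAggaagaggggaa
Itgam, distal, chr1:192089429-192089458: tgtgatgtcccaGAGGAAggctacacaggg
Itgam, proximal, chr1:192089541-192089570: ggctttagtggcTTCCTCaaagtgtttgtg
Counted from the start site of the promoter entry, the hexamers begin at base -168 in Siglec5, -245 in Clec4a3, -207 in Adgre1, and -151 and -39 in Itgam. The RefSeq gene records of Siglec5, Clec4a3 and Itgam begin earlier, at bases 102904705, 157885899 and 192089496. The stretches of Siglec5 and Clec4a3 and the proximal one of Itgam thus lie inside the gene records. Of 33469 rat promoters of the same length, 23.3% held these letters on either strand, so a match is common. The C/EBP-type letters TTGCNNAA stood in Adgre1 and Itgam (9.22% of all promoters), the STAT-type letters TTCNNNGAA in Itgam (7.67%), and the AP-1-type letters TGANTCA in 0 of the 4 (6.34%). These are matches of letters and say nothing of binding. By their RefSeq records, Siglec5 and Itgam lie on chromosome 1, Clec4a3 on chromosome 4, Fcgr1a on chromosome 2, Adgre1 on chromosome 9, and Fcgr2b and Fcer1g both on chromosome 13.

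With 5% IH plasma Siglec5 stood above every other group. Its log2 level was 7.48 in BN1 cells and 7.82 in BN2 cells with 5% IH plasma, 6.59 and 7.002 with 10% IH plasma, 6.92 and 7.01 with normoxic control plasma, and 3.92 and 4.02 with autologous plasma. Both 5% IH arrays lay above all other arrays, while the 10% IH and control arrays overlapped and the autologous arrays lay far below. The 5% IH mean was 0.69 above control on the log2 scale (limma standard error 0.156, 1.61-fold, n = 2 arrays per group), 0.56 in BN1 and 0.82 in BN2 cells. The 10% IH mean differed from control by -0.17 (standard error 0.156), with -0.33 in BN1 cells and -0.00 in BN2 cells.

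**Figure D1:**
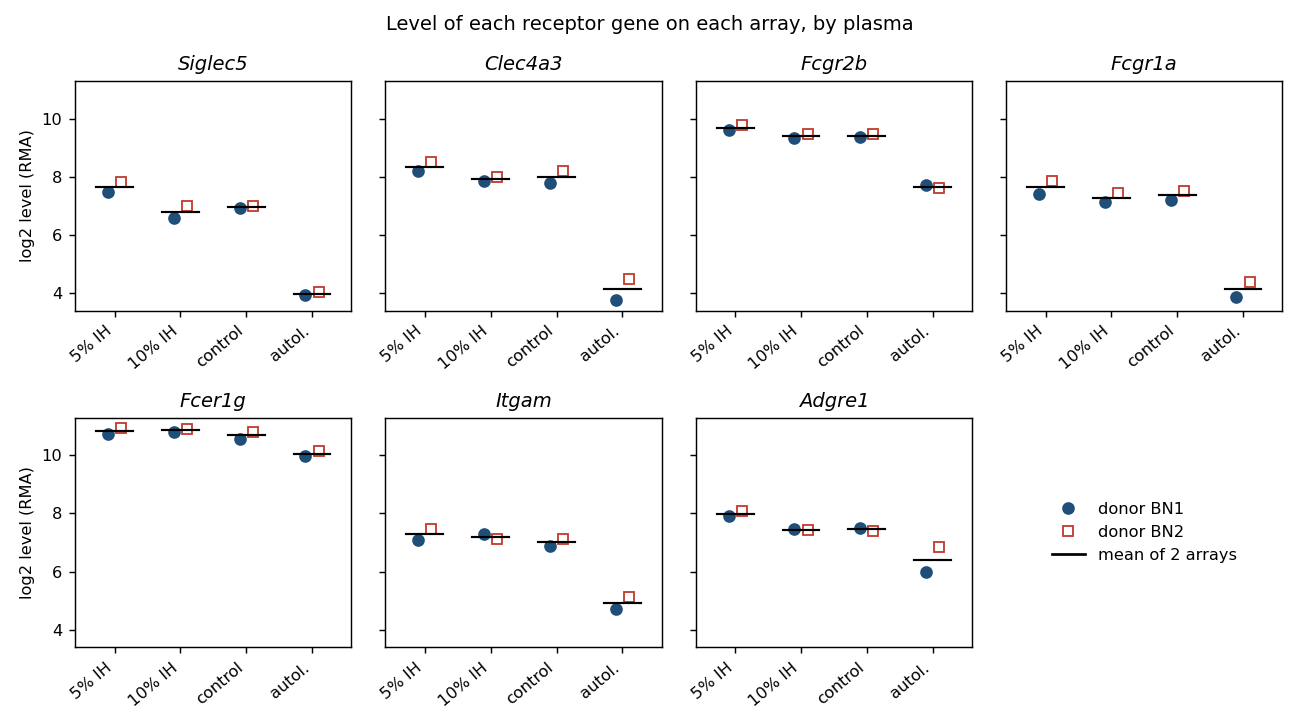
Log2 level (vertical axis, RMA) of each of the 7 receptor genes on each of the 8 arrays, by plasma. Circles are cells of donor BN1, squares are cells of donor BN2, and lines are means of 2 arrays. Siglec5 sits at 7.48 and 7.82 with 5% IH plasma, above its 10% IH, control and autologous arrays, and every gene has its lowest arrays with autologous plasma.

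Clec4a3, Fcgr2b, Fcgr1a and Adgre1 had their group means in the same order as Siglec5, 5% IH first, then control, 10% IH and autologous plasma, Fcgr1a being an activating and Fcgr2b an inhibitory receptor. The control and 10% IH arrays of each of the 5 overlapped. Clec4a3 stood at 8.20 and 8.50 with 5% IH plasma, 7.85 and 7.99 with 10% IH plasma, 7.80 and 8.18 with control plasma, and 3.75 and 4.49 with autologous plasma, on the log2 scale. The 5% IH arrays lay above the 10% IH and control arrays, although the lower of them was nearly level with the control array of BN2. Fcgr2b stood at 9.60 and 9.77 with 5% IH plasma, 9.35 and 9.46 with 10% IH plasma, 9.35 and 9.47 with control plasma, and 7.70 and 7.62 with autologous plasma. Its 10% IH and control arrays could not be told apart within a donor (differences of -0.01 in BN1 and -0.02 in BN2 cells). The 5% IH mean was above control by 0.36 for Clec4a3 (standard error 0.23, 0.40 in BN1 and 0.32 in BN2 cells) and by 0.27 for Fcgr2b (standard error 0.1, 0.25 in BN1 and 0.30 in BN2 cells). For Fcgr2b the difference is 1.21-fold, next to the 1.2-fold threshold of the study.

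For the activating receptor Fcgr1a and its signalling chain Fcer1g the arrays with 5% IH and control plasma overlapped. Fcgr1a stood at 7.42 and 7.86 with 5% IH plasma, 7.12 and 7.43 with 10% IH plasma, 7.19 and 7.52 with control plasma, and 3.86 and 4.38 with autologous plasma. BN2 cells were above BN1 cells in each group, by 0.31 to 0.52, and the control array of BN2 lay above the 5% IH array of BN1. Within a donor 5% IH was above control by 0.22 in BN1 and 0.34 in BN2 cells (mean 0.28, standard error 0.211), and with donor as a term in the fit that standard error was 0.0927. Fcer1g, the signalling partner of Fcgr1a, stood at 10.72 and 10.94 with 5% IH plasma, 10.80 and 10.91 with 10% IH plasma, 10.55 and 10.82 with control plasma, and 9.97 and 10.14 with autologous plasma. Its 3 Sprague-Dawley groups overlapped, with means 0.14 above control for 5% IH and 0.17 above control for 10% IH (standard error 0.125 for each).

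Adgre1 and Itgam were both higher with 5% IH than with control plasma in each donor, and the arrays of these groups overlapped for Itgam only. Adgre1 stood at 7.90 and 8.08 with 5% IH plasma, 7.45 and 7.44 with 10% IH plasma, 7.51 and 7.40 with control plasma, and 5.99 and 6.83 with autologous plasma. Its 5% IH arrays lay above all others, its 10% IH and control arrays were level, and the autologous arrays were 0.84 apart, the widest gap between donors of any of the 7 genes. The 5% IH mean was 0.54 above control (0.39 in BN1 and 0.68 in BN2 cells), with a standard error of 0.221 in the fit over all 8 arrays and 0.0982 in a fit without the autologous arrays. Itgam stood at 7.10 and 7.46 with 5% IH plasma, 7.29 and 7.11 with 10% IH plasma, 6.88 and 7.12 with control plasma, and 4.71 and 5.13 with autologous plasma. All 3 Sprague-Dawley groups of Itgam overlapped. The 5% IH mean was 0.28 above control (standard error 0.17, 0.21 in BN1 and 0.34 in BN2 cells), and the 10% IH mean was 0.20 above control with the donors apart, 0.40 in BN1 and -0.01 in BN2 cells.

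**Figure D2:**
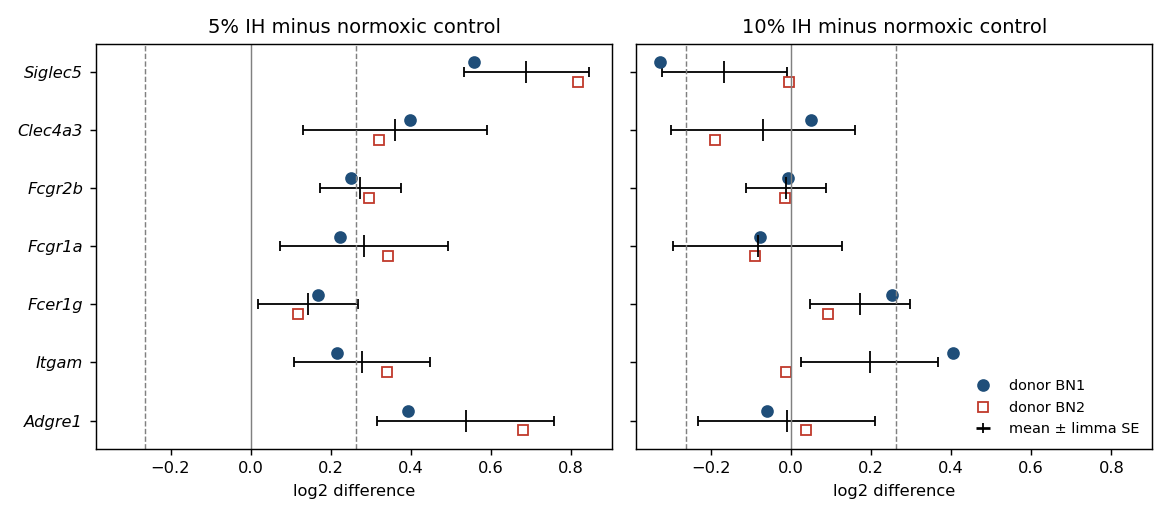
Log2 difference (horizontal axis) of each gene between 5% IH and normoxic control plasma (left panel) and between 10% IH and normoxic control plasma (right panel). Circles are donor BN1, squares are donor BN2, vertical ticks with bars are means with the limma standard error, and dashed lines mark 0.263 in either direction. Against control, 5% IH gave differences of 0.14 for Fcer1g up to 0.69 for Siglec5 with both donors above 0, while 10% IH gave -0.17 for Siglec5 up to 0.20 for Itgam.

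By the criterion of the study (a Rank Product p under 0.05, with group means more than 0.263 apart on the log2 scale), 6 of the 7 genes were higher with 5% IH than with control plasma and Fcer1g did not meet it, where 1.58% of all probe sets were called higher. The arrays of the groups did not overlap for 4 of them, Siglec5, Clec4a3, Fcgr2b and Adgre1, where 13.3% of all probe sets had both 5% IH arrays above both control arrays. These counts follow from how the genes were chosen, and nothing is read from them. In the limma fit the adjusted p was under 0.05 for 0.0% of the probe sets here (0 of 31042). The unadjusted limma p was under 0.05 for 790 probe sets, fewer than a cut at 0.05 gives without any difference. Without the BN2 array of 5% IH plasma, or without the BN1 array of control plasma, 2 of the 7 genes met the criterion, Siglec5 (0.51 and 0.64 above control) and Adgre1 (0.45 and 0.59 above control).

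With 10% IH plasma 0 of the 7 genes met the criterion against control, where 3.58% of all probe sets were called higher and 3.37% lower. Without the BN2 array of control plasma Fcer1g (0.31) and Itgam (0.31) were past it, and without the BN2 array of 10% IH plasma Siglec5 was past it downwards (-0.37).

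Set directly against 10% IH plasma, 5% IH plasma gave higher levels of 5 of the 7 genes by the criterion, where 3.28% of all probe sets were called higher. Siglec5 was 0.85 higher with 5% IH (0.89 in BN1 and 0.82 in BN2 cells), Adgre1 0.55, Clec4a3 0.43, Fcgr1a 0.37 and Fcgr2b 0.29, each in cells of both donors. The arrays of Fcgr1a overlapped and those of the other 4 did not (16.5% of all probe sets had both 5% IH arrays above both 10% IH arrays). Itgam differed by 0.08, with -0.19 in BN1 and 0.35 in BN2 cells, and Fcer1g by -0.03, with -0.08 in BN1 and 0.02 in BN2 cells. Without the BN2 array of 5% IH plasma 2 genes stayed past the threshold, Siglec5 (0.68) and Adgre1 (0.46), while Clec4a3 stood at 0.28 there without meeting the Rank Product part. Without the BN1 array of 10% IH plasma Siglec5 (0.65), Adgre1 (0.55) and Clec4a3 (0.36) stayed past it. Both this comparison and the 5% IH comparison with control use the same 5% IH arrays. The counts of this comparison also follow from how the genes were chosen, and nothing is read from them.

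Every Sprague-Dawley plasma gave higher levels than autologous plasma for all 7 genes, and the control plasma is described first. Clec4a3 was 3.87 higher on the log2 scale with control plasma (14.6-fold, standard error 0.23), Fcgr1a 3.24 higher (9.43-fold, standard error 0.211) and Siglec5 2.99 higher (7.96-fold, standard error 0.156). Itgam was 2.08 higher (4.23-fold), Fcgr2b 1.75 (3.37-fold), Adgre1 1.05 (2.07-fold) and Fcer1g 0.63 (1.55-fold). The donors differed little for Siglec5 (3.00 in BN1 and 2.98 in BN2 cells) and most for Adgre1 (1.52 in BN1 and 0.57 in BN2 cells). All 7 genes met the criterion (5.33% of all probe sets were called higher) and their arrays did not overlap (17.2%). In limma 6 of the 7 had an adjusted p under 0.05, all but Adgre1, where 1.78% of all probe sets did. These counts too follow from how the genes were chosen, and nothing is read from them. With autologous plasma Siglec5, Clec4a3 and Fcgr1a lay at percentiles 21.5 to 34.2 of their arrays, and Itgam at 37.5 and 44.2. Whether these levels stood above background cannot be read from the values, so the order of the folds of these genes is not interpreted. Fcgr2b lay at percentiles 76.3 and 75.2 on the same arrays. With 5% IH against autologous plasma the same 7 differences were wider, among them 3.68 for Siglec5 (standard error 0.156), 4.23 for Clec4a3 (standard error 0.23) and 2.02 for Fcgr2b (standard error 0.1), and the narrowest was again that of Fcer1g (0.78, standard error 0.125).

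The markers of monocytes moved with these genes. Of 10 listed markers 9 were measured. By the criterion 7 of these were higher with control than with autologous plasma, where 6.16% of all genes were called higher. Of those 7 markers 6 also had a limma adjusted p under 0.05, where 2.44% of all genes had such a limma p in either direction. Cd14, the lipopolysaccharide co-receptor of monocytes, was higher by 5.28 (standard error 0.131) and Csf1r, the receptor for macrophage colony-stimulating factor, by 2.89 (standard error 0.251), while Cd163 (0.01) and Ly86 (-0.05) did not meet the criterion. On the autologous arrays Cd14 stood at 4.48 and 4.78, below the array medians, so whether it stood above background there cannot be read. The summed linear signal of the 9 markers was 3417 to 4032 on the control arrays and 809 to 923 on the autologous arrays, beside T cell sums of 10207 to 10633 on the control arrays and 10082 to 10571 on the autologous arrays. Of the neutrophil markers 3 of 6 measured were higher with control plasma by the criterion, Csf3r, the receptor for granulocyte colony-stimulating factor (0.87, limma adjusted p = 0.0195), S100a8 (0.34, limma adjusted p = 0.838) and Camp (0.33, limma adjusted p = 0.344), and their sums were 194 to 211 on the control arrays and 135 to 201 on the autologous arrays. S100a8 stood at 5.62 and 5.79 with control plasma and at 4.84 and 5.90 with autologous plasma, higher in BN1 cells and lower in BN2 cells. The eosinophil markers gave 0 of 4. Fewer monocytes and less RNA of these genes per monocyte cannot be told apart in such cultures, and the part of monocyte or neutrophil number in the differences of the 7 genes was not tested.

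**Figure D3:**
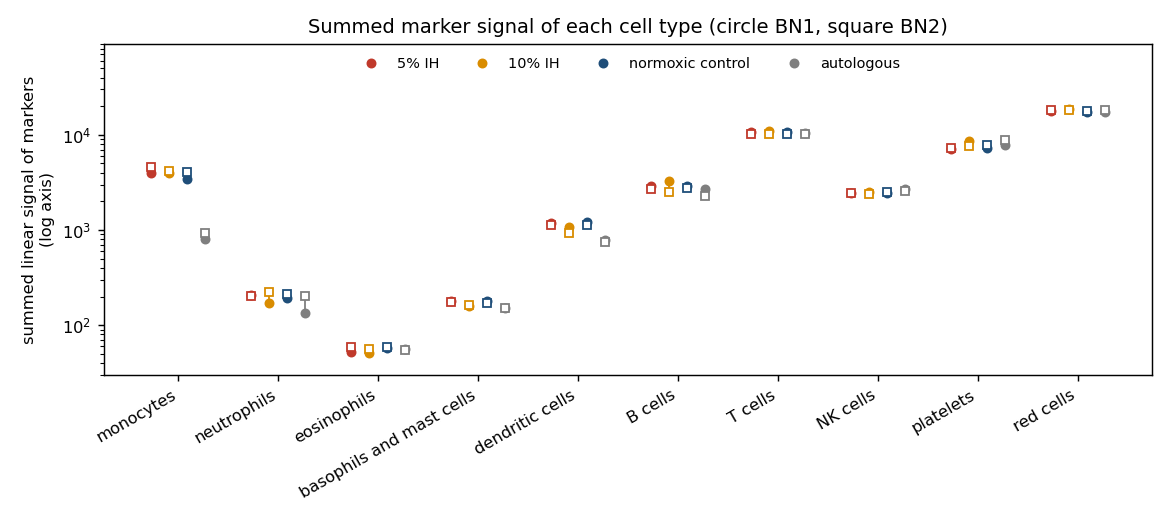
Sum of the linear signals of the measured markers of each cell type (vertical axis, log scale) on each array, by plasma, with circles for donor BN1 and squares for donor BN2. The monocyte sum is 809 to 923 with autologous plasma and 3417 or more on every array with Sprague-Dawley plasma, while the T cell sum stays between 10082 and 11096.

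Among the Sprague-Dawley plasmas the monocyte sum was higher with 5% IH than with control plasma within each donor, at 3932 with 5% IH against 3417 with control plasma in BN1 cells and at 4551 with 5% IH against 4032 with control plasma in BN2 cells. With 10% IH plasma it was 4012 in BN1 and 4143 in BN2 cells, also above the control array of the same donor. Being linear, these sums rest mostly on the brightest markers, Lyz2 and Cd14 (log2 levels of 10.86 and 10.21 on the 5% IH array of BN1). The median log2 difference of the 9 markers was 0.06 for 5% IH minus control and 0.03 for 10% IH minus control. Against control, 5% IH plasma gave 1 monocyte marker higher (Cd14, by 0.40, standard error 0.131) and 1 lower (Ccr2, a chemokine receptor, -0.29, standard error 0.105), where 1.46% of all genes were called higher and 1.04% lower. Against control, 10% IH plasma gave 1 higher (Vcan, a proteoglycan, 0.48, standard error 0.257), where 2.04% of all genes were called higher. The neutrophil sums were 201 to 206 for 5% IH, 170 to 223 for 10% IH and 194 to 211 for control, and 0 of 6 neutrophil markers and 0 of 4 eosinophil markers met the criterion in the comparisons among these plasmas. The part of cell numbers in the 5% IH differences of the 7 genes was not tested.

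Other receptors, adaptors and signalling genes of the same pathway were taken from 6 lists, 67 of 102 genes being measured. With 5% IH against control plasma 4 of the 67 were higher by the criterion and 0 were lower, where 1.46% of all genes were called higher, and the median difference was 0.04 on the log2 scale (-0.00 over all genes). Pilra, an inhibitory receptor of myeloid cells, was higher by 0.30 (standard error 0.169) and Lilrb4, an inhibitory receptor of the leukocyte immunoglobulin-like family, by 0.29 (standard error 0.119). Pilra stood at 8.28 and 8.55 with 5% IH plasma, against 7.96 and 8.27 with control plasma, so that its groups nearly touched. Icam1, a ligand of the integrin that Itgam forms, was higher by 0.29 (standard error 0.119), and Pik3ap1, an adaptor that links receptors to PI3-kinase, by 0.30 (standard error 0.152), with overlapping arrays for the last. Of the inhibitory receptors 2 of 14 measured (24 listed) were higher and of the activating receptors and adaptors 0 of 7 measured (19 listed). Tyrobp, the DAP12 adaptor that carries the same kind of activation motif as Fcer1g, differed by 0.13, and Clec7a, the beta-glucan receptor dectin-1, by 0.03. The 4 genes had limma adjusted p-values of 1.0, and 0 of the 4 met the criterion without the BN2 array of 5% IH plasma or without the BN1 array of control plasma.

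With 10% IH against control plasma 4 other genes of the 67 were higher and 0 were lower, where 2.04% of all genes were called higher. Lgals9, the lectin galectin-9, was higher by 0.56 (standard error 0.148, 0.90 in BN1 and 0.22 in BN2 cells), Cd200r1, an inhibitory receptor, by 0.36 (standard error 0.317), Adgre5, an adhesion receptor of the same family as Adgre1, by 0.30 (standard error 0.109), and Pecam1, an adhesion molecule with inhibitory motifs, by 0.28 (standard error 0.0973). The lowest limma adjusted p of the 4 was 0.920, and without the BN2 array of control plasma 2 of the 4 stayed called while 7 of the 67 were higher. With each of the other arrays left out 3 or 4 of the 4 stayed called, and 2 or 3 of the 67 were lower. Adgre5 thus stood at 9.01 and 8.97 with 10% IH plasma, against 8.63 and 8.75 with control plasma, while Adgre1 differed by -0.01 between the same plasmas. Set directly, 5% IH minus 10% IH, 4 genes were higher with 5% IH (Pilra 0.36, Cd302 0.35, Icam1 0.29 and Pik3ap1 0.29) and 3 were lower (Lgals9 -0.42, Cd200r1 -0.36 and Trem2 -0.29), where 2.63% of all genes were called higher and 1.85% lower. Cd302 is an endocytic lectin and Trem2 an activating receptor that signals through Tyrobp. The arrays overlapped for Cd302 (6.45 and 6.93 with 5% IH, 6.02 and 6.66 with 10% IH plasma). They also overlapped for Pik3ap1 (8.15 and 8.54 with 5% IH, 7.93 and 8.19 with 10% IH plasma) but not for Pilra. Trem2 lay at 5.02 to 5.45 on these arrays, below the array medians. The limma adjusted p-values of the 7 genes were 0.981. Without the BN2 array of 5% IH plasma 0 of the 67 were higher and 2 were lower, 1 of them among the 7 above, and without the BN1 array of 10% IH plasma 1 was higher and 3 were lower, with 3 of the 7 called as before.

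With control against autologous plasma 26 of the 67 were higher by the criterion and 5 were lower, where 6.16% of all genes were called higher and 3.97% lower, and 16 of these 31 had a limma adjusted p under 0.05 (2.44% of all genes). Inhibitory receptors were higher for 10 and lower for 1 of 14 measured, with a median difference of 0.56, and activating receptors and adaptors were higher for 3 of 7, with a median of 0.23, against a median of -0.01 over all genes. The difference between these lists was not tested. Of the listed genes 14 of 24 inhibitory but only 7 of 19 activating ones were measured. Trem1, Clec4d and Clec4e were among the activating receptors not measured. Among the measured activating genes, Fcer1a and Ms4a2 also stood on the marker list of basophils and mast cells. The 2 lists are thus not a balanced comparison. Pilra (3.40, limma adjusted p = 1.8e-05) and Lilrb4 (3.21, limma adjusted p = 4.29e-06) were the inhibitory receptors that differed most, followed by Cd300a, a phospholipid-binding inhibitory receptor (2.53, limma adjusted p = 0.000205). Pilra stood at 7.96 and 8.27 with control plasma, against 4.53 and 4.90 with autologous plasma. The other genes of this size were lectins, Lgals3 or galectin-3 (2.91, limma adjusted p = 5.63e-05) and Cd302 (2.73, limma adjusted p = 0.000632). With autologous plasma Lilrb4 stood at 5.31 and 5.51, Cd300a at 4.59 and 5.23, and Cd302 at 3.45 and 4.06. These levels, like those of Pilra, lay below the array medians of 5.53 to 5.56. Whether they stood above background cannot be read from them, so the order of these folds is not interpreted.

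The 3 activating genes that were higher with control plasma were Clec7a (2.38), Pira2, a paired immunoglobulin-like receptor (1.197), and Tyrobp (0.95). Fcgr3a, the low-affinity Fc receptor that also signals through Fcer1g, had -0.05 and did not meet the criterion, with levels of 5.08 and 5.04 on the control arrays, against 5.16 and 5.05 on the autologous arrays. These levels lay below the array medians of 5.53 to 5.56, so whether they stood above background cannot be read from them. The 5 genes that were lower were Lgals9 (-0.74, limma adjusted p = 0.0462), Pecam1 (-0.59, limma adjusted p = 0.0182), Cd47, the ligand of the inhibitory receptor Sirpa (-0.46, limma adjusted p = 0.05), Clec2d, a lectin of lymphocytes (-0.45, limma adjusted p = 0.228), and Clec1b, a lectin receptor of platelets (-0.29, limma adjusted p = 0.279). Sirpa itself was higher by 1.08 (limma adjusted p = 0.00136). Downstream, 3 of 13 kinases and adaptors were higher and 1 of 8 phosphatases and restraints, Ptpn6, the phosphatase SHP-1 that inhibitory receptors recruit (0.51, limma adjusted p = 0.0235), and the kinase Syk had -0.22 without meeting the criterion. Itgb2, the partner chain of Itgam, was higher by 0.41, with a limma adjusted p = 0.0553.

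**Figure D4:**
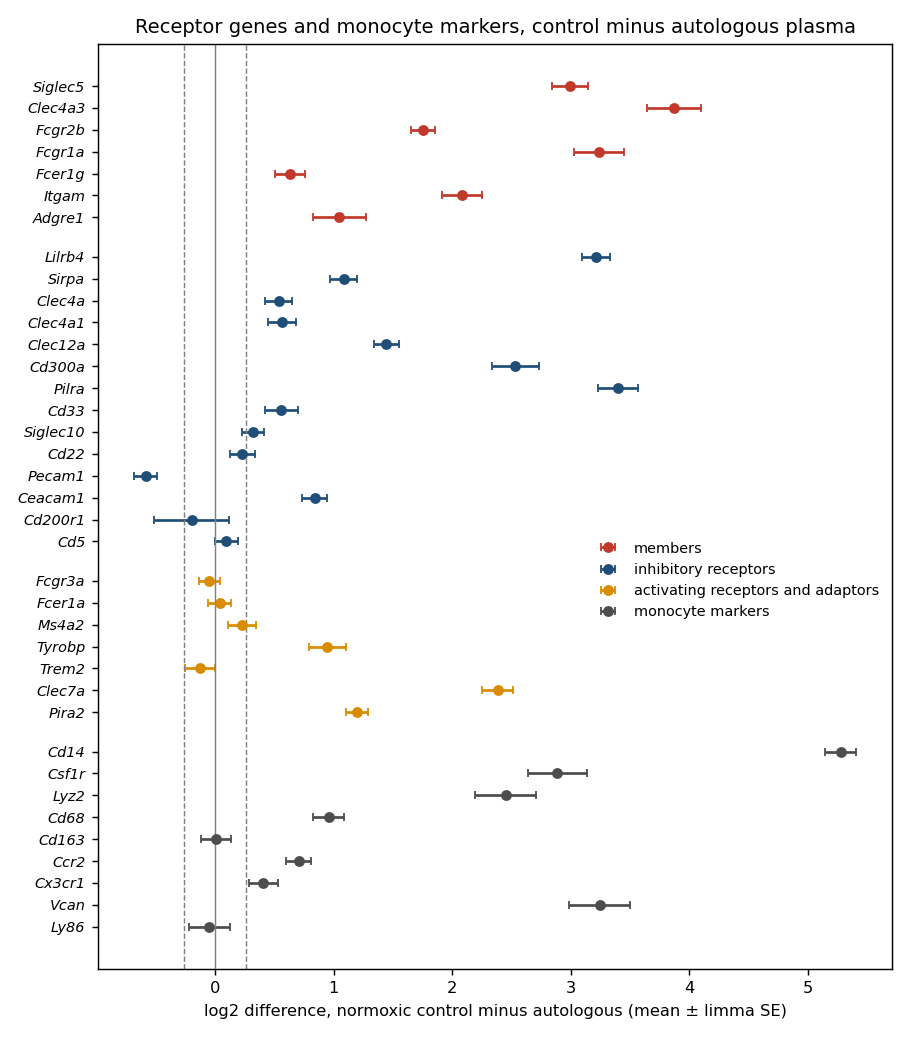
Log2 difference between normoxic control and autologous plasma (horizontal axis) of the 7 receptor genes, the measured inhibitory receptors, the measured activating receptors and adaptors, and the measured monocyte markers, as mean with limma standard error. Dashed lines mark 0.263 in either direction. The 7 genes run from 0.63 for Fcer1g to 3.87 for Clec4a3, within the span of the monocyte markers from -0.05 for Ly86 to 5.28 for Cd14.

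Over the 8 arrays the 5 genes whose levels went most like Siglec5 were Cyfip1 (Pearson r 0.998), a regulator of actin assembly, Wdfy3 (0.997), Snx10 (0.997), Anxa4 (0.996) and Csf2ra (0.996), the receptor chain for granulocyte-macrophage colony-stimulating factor, of 9970 genes above the 40th percentile of mean level. Among the other 6 receptor genes Fcgr2b came 11th (0.994), Fcgr1a 41st (0.987), Clec4a3 60th (0.985), Itgam 132nd (0.970), Fcer1g 288th (0.936) and Adgre1 327th (0.927). The 8 arrays share 2 donors and fall into autologous arrays and Sprague-Dawley arrays far apart, so these values mostly describe that gap. Over the 6 Sprague-Dawley arrays alone Cyfip1 again came first (0.997), Fcgr2b 12th (0.970) and Adgre1 64th (0.921), while Itgam (0.437) and Fcer1g (0.326) were far down the order. Clec4a3 and Fcgr1a correlated at 0.999 over the 8 arrays and at 0.954 over the 6. These are descriptions of few arrays from shared donors and pools.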

How the data were processed

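Transcripts were measured in reporter cells of 2 donors with 4 plasmas on 8 arrays. The authors deposited log2 values, made by Robust Multichip Analysis (background correction, quantile normalization of the arrays together and a summary per probe set) in Expression Console. Partek is also named in the submitters' notes, with no version or role. The values were used without further scaling. Of 31042 probe sets, 20826 carried 1 symbol, 436 several and 9780 none. A listed gene was read from its brightest probe set, and each of the 7 members had 1. The array number limits the precision, and no RNA quality value was used here.

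The Rank Product p came from all between-array ratios of a comparison with 100 permutations within arrays, 1-sided at 0.05, beside a change beyond 0.263 in log2 (1.2-fold). The 4 groups were also fitted in limma 3.58.1 (R 4.3.3) with no term for donor, and p-values were adjusted after Benjamini-Hochberg across all probe sets. Steps were tested on simulated data, where recovery was required only of planted differences larger than those of the receptor genes among the Sprague-Dawley plasmas. The simulation is therefore not evidence that smaller differences are found. Replicate numbers pair the arrays, since they name the donor of the cells. Deviations of same-numbered arrays correlated at 0.24 (5% IH and control), 0.165 (5% and 10% IH), 0.059 (10% IH and control), and at -0.0833, -0.171 and -0.00387 for 5% IH, 10% IH and control with autologous plasma.

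Members, lists and rules were chosen with earlier results of these data known. Named were the members, list genes past the criterion among Sprague-Dawley plasmas with the same direction in both donors, the 5 largest of each direction against autologous plasma, other members of receptor families that went apart, and the 5 genes most like Siglec5. Other genes and all marker genes in the text were named after their values were seen. Promoter sequence and positions are RefSeq's (GRCr8). The array values carry no build.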

Additional observations from a re-analysis of the deposited data

Results flagged for a closer look

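Siglec5, Fcgr1a and Fcgr2b stood above control on both donors' arrays with 5% IH plasma and level with or below control on both donors' arrays with 10% IH plasma. The gap between the plasmas, 5% IH minus 10% IH, was 0.85 for Siglec5, 0.37 for Fcgr1a and 0.29 for Fcgr2b on the log2 scale. The 10% IH side was small, with -0.33 in BN1 and -0.00 in BN2 cells for Siglec5, -0.08 and -0.09 for Fcgr1a, and -0.01 and -0.02 for Fcgr2b. Its sign was not stable. Without the BN1 array of 10% IH plasma the 10% IH differences from control were 0.04 for Siglec5, 0.07 for Fcgr1a and 0.05 for Fcgr2b. The difference was not tested, since the genes were chosen on these arrays and the comparisons share their control arrays.

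Itgam differed between the donors in both comparisons of 10% IH with another Sprague-Dawley plasma. For 10% IH minus control it was 0.40 in BN1 cells and level, at -0.01, in BN2 cells, a difference between donors, BN1 minus BN2, of 0.42. For 5% IH minus 10% IH it went opposite ways, -0.19 in BN1 and 0.35 in BN2 cells, a difference between donors of -0.54. With 1 array per donor and plasma this was not tested.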

How the results depend on the processing

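For the 7 receptor genes the count past the criterion was 6 for 5% IH against control, 0 for 10% IH against control, 5 for 5% IH against 10% IH and 7 for control against autologous plasma. Within-donor ratios, the replicate block in the Rank Product, a 2-sided p, repeated quantile normalization, median centring and leaving out the dimmest 40% kept these counts, with the same genes called. The deposited values were already quantile normalized, so repeated normalization and centring could move little. None of the 7 genes was among the dimmest 40%. By limma's adjusted p, with or without donor as a replicate block in the fit, and in a fit without the autologous arrays that was chosen after seeing the data, 0 of the 7 and 0 of the 67 pathway genes were called in each comparison among the Sprague-Dawley plasmas. Against autologous plasma limma called 6 of the 7, and 16 of the 67 with and without the replicate block, where the criterion called 31. With 1 array left out in turn the counts for the 7 genes ran from 2 to 7 for 5% IH against control (7 without the BN2 control array), from 0 to 2 for 10% IH against control, from 2 to 5 for 5% IH against 10% IH and from 7 to 7 for control against autologous. For the 67 pathway genes they ran from 0 to 11 (4 with all arrays), 7 to 10 (4), 2 to 8 (7) and 29 to 34 (31) in the same order. Among the 7 genes no difference past the criterion reversed under any alternative, and reversal was not looked for among the pathway genes. With 2 arrays per group, and the spread of 2 donors, differences near the 1.2-fold threshold are set by single arrays. The share of all genes called was not counted with an array left out, so nothing is read from the counts with 1 array left out.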
